A study of Mus musculus with 2 samples.

Results

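A set of 8 genes of enamel formation was followed in the incisor of newborn mice with and without *Sox21*: the matrix protein genes *Amelx*, *Ambn* and *Enam*, the protease genes *Mmp20* and *Klk4*, the basal lamina genes *Amtn* and *Odam*, and *Fam83h*. They were chosen by name, as the genes with these symbols among 21245 genes that the array covers under a reference symbol. Earlier results of these data were known when the set was chosen. All 8 were measured, which held for 13796 genes in total and means that the scanner software marked the probe as well above background on each array. The study compared 1 array of wild-type incisor with 1 array of *Sox21* KO incisor, both Agilent SurePrint G3 mouse arrays hybridized with Cy3-labelled total RNA. The wild-type mice were C57BL/6J, and the *Sox21* KO mice were a gift. Their strain background and the deleted part of *Sox21*, which encodes a transcription factor of the SoxB2 group, are not given in the sources used here. The study cites the same source for the *Sox21* KO mice and for a reporter mouse with GFP inserted at the *Sox21* locus. The sample labels give the age as postnatal day 0 and the methods give day 1. The tissue is called incisor, tooth germ or ameloblasts in different places, and the number of animals behind each array is not given. With 1 array per genotype no difference below has a replicate check and no test was made.

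Enamel is laid down by ameloblasts, tall epithelial cells that first secrete a protein matrix and later remove it while mineral fills the space. Amelogenin (*Amelx*), ameloblastin (*Ambn*) and enamelin (*Enam*) are the matrix proteins of the secretory stage, and the metalloproteinase *Mmp20* starts to cleave them there. In the maturation stage the serine protease *Klk4* degrades what is left, and amelotin (*Amtn*) and the odontogenic ameloblast-associated protein (*Odam*) enter the basal lamina that ties the cells to the enamel. *Fam83h* encodes an intracellular protein that binds casein kinase and keratin filaments. Mutations in several of these genes are known to cause amelogenesis imperfecta, an inherited failure of enamel.

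The arrays read each of these transcripts through probes of 60 bases, 9 in all, with 2 for *Odam* and 1 for each other gene. The probes shown are those of *Amelx*, which gave the highest signal of either array, of *Enam* and *Amtn*, which were lower in *Sox21* KO incisor to a different extent, and of the dimmer probe of *Odam*, which was higher. They are in the 5′ to 3′ direction as the array files list them, and no base is in capitals because the whole probe hybridizes.
Amelx: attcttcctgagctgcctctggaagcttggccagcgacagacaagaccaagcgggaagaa
Enam: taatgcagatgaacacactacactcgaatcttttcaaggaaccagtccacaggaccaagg
Amtn: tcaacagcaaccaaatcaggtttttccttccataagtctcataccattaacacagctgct
Odam: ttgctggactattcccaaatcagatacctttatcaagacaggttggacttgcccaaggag
The files place them on genome build mm9. The *Amelx* probe (transcript NM_009666) lies at chrX:165619713-165619772 on the minus strand, and the *Enam* probe (NM_017468) at chr5:88933627-88933686 on the plus strand. The *Amtn* probe (NM_027793) is given as chr5:88807126-88807920, so its 60 bases are spread over 795 bases of the genome and are not contiguous there. The dimmer *Odam* probe (NM_027128) lies at chr5:88316448-88316507 and the brighter one (ENSMUST00000129757) at chr5:88323020-88323079. The remaining probes lie at chr5:88897416-88897475 for *Ambn*, chr9:7674310-7674369 for *Mmp20*, chr7:51141115-51141174 for *Klk4* and chr15:75831557-75831616 for *Fam83h*. Whether a probe is in a coding exon or a UTR was not looked up, as no mm9 annotation was used here.

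The targeted gene was read by 2 probes. The brighter *Sox21* probe gave processed signals of 1362 in wild-type and 659 in *Sox21* KO incisor, and the dimmer one gave 286 and 103. After each signal was divided by the 75th percentile of its array, which was 268 for wild-type and 276 for *Sox21* KO, the log2 ratio (*Sox21* KO minus wild-type) was -1.09 and -1.51. *Sox21* signal was therefore lower on the array labelled KO, although it stayed well above background there, and since the deleted part is not stated it is unknown whether the probes lie inside it. Across the 13796 measured genes the median log2 ratio was 0.01, and the 5th and 95th percentiles were -0.47 and 0.48. The log2 ratio of probes spotted repeatedly, 268 probes in all, had a median SD of 0.09 between spots. Spots well above background made up 49.7% and 50.4% of the 59305 spots other than controls, and 0 spots were saturated.

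Among the enamel genes, *Amtn* and *Klk4* were at least 2-fold lower in *Sox21* KO incisor, *Enam* and *Mmp20* were 1.57- and 1.54-fold lower, *Ambn* was slightly lower, *Amelx* was nearly equal, and *Fam83h* and *Odam* were higher. In all, 2 of 8 were at least 2-fold lower, against 0.667% of measured genes, and 0 of 8 were at least 2-fold higher, against 0.739%. *Amtn* and *Klk4* had been picked by the study from these same arrays, so the first contrast was partly fixed in advance. Lower by any amount were 5 of 8, against 47.6% of measured genes. Their log2 ratios had a median of -0.43 and spread over 2.52 units, from *Amtn* to *Odam*. The scanner software puts an error of about 10% on each member's signal, equal to 0.20 on the log2 ratio, and 5 of the 8 ratios (*Amtn*, *Klk4*, *Enam*, *Mmp20* and *Odam*) were more than 2 such errors from 0, as were 10.8% of measured genes. This error covers the reading of a spot and not the difference between tissue samples. Bulk tissue was used, so fewer cells of a type and less RNA per cell cannot be told apart.

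**Figure D1:**
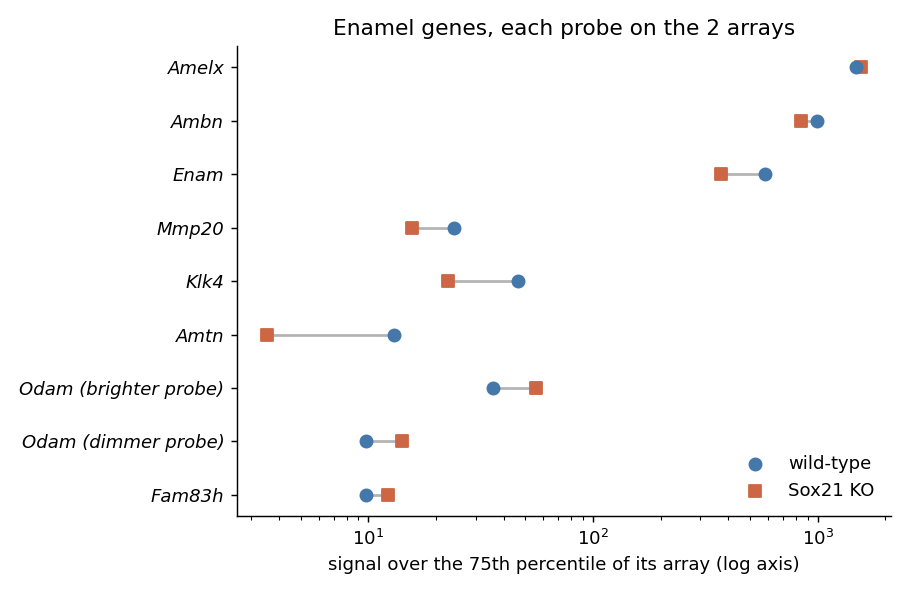
Signal of the 9 probes of the enamel genes in wild-type (blue circles) and *Sox21* KO incisor (orange squares), each divided by the 75th percentile of its array, on a log axis. The gap is widest for *Amtn*, from 13.1 to 3.53, both *Odam* probes run the other way, and the *Amelx* points nearly coincide.

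The matrix protein genes differed among themselves. *Amelx*, the gene of the main matrix protein, had processed signals of 394211 in wild-type and 428250 in *Sox21* KO incisor. Divided by the percentile of the array these were 1472 and 1554, a log2 ratio of 0.08, which is smaller than the SD of repeat spots and turns to -0.08 when the arrays are scaled so that epithelium markers are equal. *Amelx* gave the brightest spot of both arrays, with 0 saturated pixels on either.

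*Ambn*, whose protein also holds ameloblasts to the matrix, went from 265293 to 233062. The scaled signals were 991 and 846, for a log2 ratio of -0.23. This is larger than the repeat-spot SD but close to the software's error of 0.20, and 15.3% of measured genes had a ratio at or below it. *Enam*, the gene of the largest and least abundant of the matrix proteins, went from 155172 to 101718, or from 580 to 369 after scaling. Its log2 ratio was -0.65, a signal 1.57-fold lower in *Sox21* KO incisor, and 2.22% of measured genes had a ratio as low. The log2 ratios of *Amelx* and *Enam* thus differed by 0.73, or 1.66-fold.

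Genes this bright varied little otherwise. There were 77 genes with a mean scaled signal at least as high as that of *Enam*, with a median log2 ratio of 0.02 and 5th and 95th percentiles of -0.16 and 0.13. *Enam* itself had the lowest ratio of the 77, and the collagen gene *Col1a2* had the highest, at 0.26. *Ambn* also lay below the 5th percentile of these genes, and *Amelx* lay inside the range. No replicate shows how far such a ratio would move between arrays of 1 genotype. Whether ratios are compressed at signals this high was not tested.

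Both proteases were lower on the KO array. *Mmp20*, the protease of the secretory stage, went from a processed signal of 6436 to 4304. Its scaled signal was 24.0 in wild-type and 15.6 in *Sox21* KO incisor, a log2 ratio of -0.62 and a signal 1.54-fold lower. *Klk4*, the protease of the maturation stage, went from 12452 to 6211, and from 46.5 to 22.5 after scaling. Its log2 ratio was -1.05, or 2.06-fold lower, with 77 of the 13796 genes lower still. *Klk4* sits just past the 2-fold line: when the arrays were scaled to their median instead, its log2 ratio was -0.97 and *Amtn* was then the only one of the 8 at least 2-fold lower. *Mmp20* and *Enam*, a protease and its substrate, had nearly the same ratio, 1.02-fold apart.

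The genes of the basal lamina went in opposite directions. *Amtn* went from a processed signal of 3495 in wild-type to 972 in *Sox21* KO incisor, and from 13.1 to 3.53 after scaling. The log2 ratio was -1.89, a signal 3.70-fold lower, and 11 of the 13796 measured genes were lower than that. On the KO array, probes were marked as well above background down to a signal of 19.5, so the fold is a measured value and not a bound.

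*Odam*, a partner of amelotin in the same lamina, was higher on the KO array at both probes. The brighter probe went from 9612 to 15331, or from 35.9 to 55.6 after scaling, with a log2 ratio of 0.63. The dimmer probe went from 2600 to 3905, or from 9.71 to 14.2, with a log2 ratio of 0.55. The probes differed by about the SD of repeat spots, and 353 measured genes had a higher ratio than the brighter one. *Amtn* and *Odam* were 5.74-fold apart in their ratio, the widest gap between any pair of the 8.

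*Fam83h*, the intracellular scaffold, went from a processed signal of 2606 to 3381. The scaled signals were 9.73 and 12.3, a log2 ratio of 0.33, which is within 2 errors of the software. With *Odam* and *Amelx* it made up the 3 genes of the set with a ratio above 0.

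**Figure D2:**
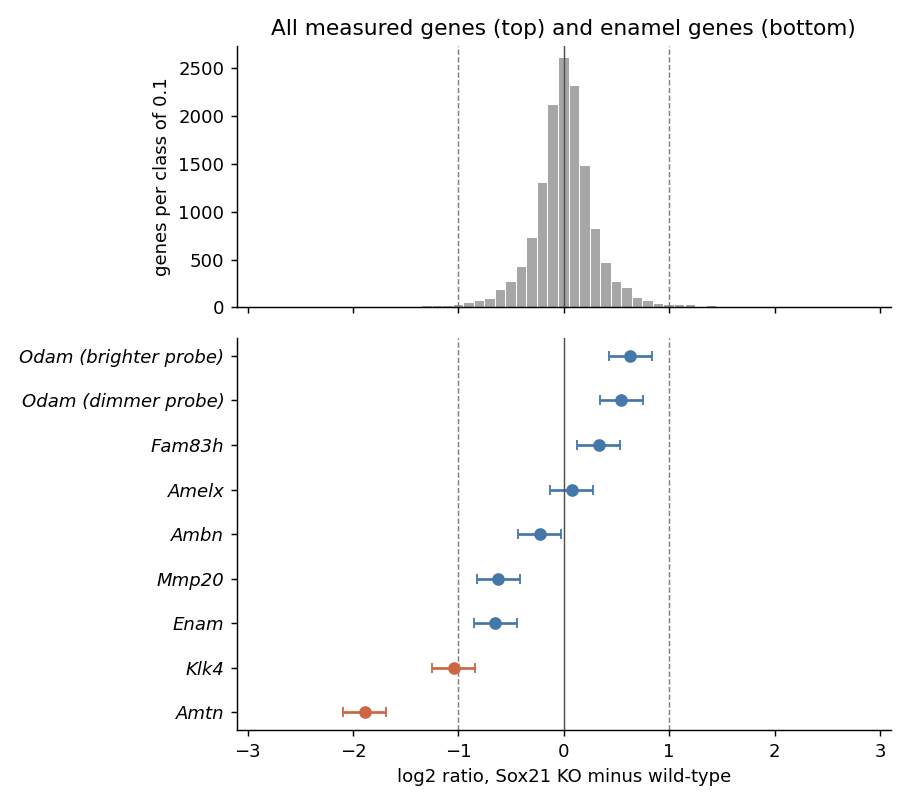
Top, number of genes in classes of 0.1 of the log2 ratio (*Sox21* KO minus wild-type) for the 13796 measured genes. Bottom, the 9 probes of the enamel genes, with bars of 1 error of the scanner software and dashed lines at 2-fold: *Amtn* at -1.89 and *Klk4* at -1.05 (orange) lie past the lower line, and the *Odam* probes at 0.55 and 0.63 have the highest ratios.

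The surroundings of the probes on the slide differed little. The median log2 ratio of the spots around each probe, 23 to 64 of them, was between -0.04 and 0.02 for the 9 probes, and no probe had an outlier mark. *Amtn* and *Klk4* are among the genes that the study had picked from these same arrays, so their place at the low end is not independent evidence. The study also reports qPCR of tooth germs, with *Amtn* and *Klk4* decreased in *Sox21* KO. It describes *Mmp20*, amelogenin and *Shh* as unchanged, without showing the data, whereas *Mmp20* was 1.54-fold lower on these arrays. The genes nearest to the 2-fold line were *Klk4*, just past it at -1.05, and *Enam*, short of it at -0.65.

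*Amtn*, *Ambn*, *Enam* and *Odam* lie together on chromosome 5, in the cluster of secreted calcium-binding phosphoproteins that also holds the caseins and salivary genes. On mm9 the probes from *Odam* to *Enam* span 617 kb, and a window with 200 kb on each side holds 41 probes. Seen from the *Amtn* probe, the *Odam* probes lie at -491 and -484 kb, *Ambn* at 89.9 kb and *Enam* at 126 kb. Log2 ratios of the 4 neighbours therefore ran from 0.63 at the *Odam* end through -1.89 at *Amtn* to -0.23 at *Ambn* and -0.65 at *Enam*, so 3 were lower and *Odam* was higher.

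Apart from these genes, 10 other probes of the window were measured and 26 were not. The named ones had log2 ratios of 0.11 for BC037156, 0.07 for *Utp3*, 0.09 for *Rufy3* and 0.11 for *Grsf1*. An unnamed probe beside the casein gene *Csn3*, at chr5:88361449-88361508, went from a scaled signal of 1.39 to 0.58, a log2 ratio of -1.25. An unnamed probe between *Amtn* and *Ambn* had a ratio of -0.06, and another, between *Rufy3* and *Grsf1*, had a ratio of -0.28. The 3 measured probes of a non-coding region beyond *Enam* gave ratios of 0.00, -0.90 and 0.02, so they disagreed within the region. Of the 6 milk and saliva genes listed, 0 were measured: *Csn1s1*, *Csn1s2b*, *Csn2* and *Csn3* were not well above background on either array, *Fdcsp* had no probe, and *Csn1s2a*, marked in wild-type alone, was at least 2.62-fold lower.

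**Figure D3:**
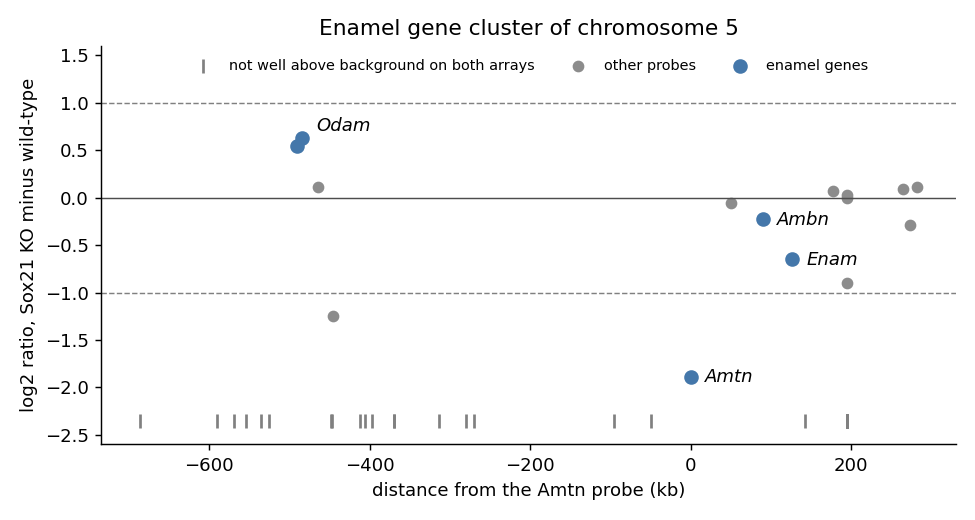
Log2 ratio (*Sox21* KO minus wild-type) of the probes around the enamel genes of chromosome 5, by distance from the *Amtn* probe in kb. Blue points are the enamel genes, grey points the 10 other measured probes, and ticks at the bottom the 26 probes not well above background on both arrays; *Odam* lies above 0 at 0.63, and *Amtn*, *Ambn* and *Enam* lie below it, *Amtn* lowest at -1.89.

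Promoters of the enamel genes are shown for the pair of members that were at least 2-fold lower, *Amtn* and *Klk4*, and for *Odam*, the one that went furthest the other way. Each is the 250 bases before the start of the RefSeq transcript on build GRCm38.p6, in the direction of the gene. They lie at chr5:88375858-88376107 for *Amtn*, chr7:43880910-43881159 for *Klk4* and chr5:87884760-87885009 for *Odam*, all on the plus strand. Capitals mark matches to ACAAAG or ACAATG on either strand, letters that SOX proteins are known to bind.
Amtn promoter: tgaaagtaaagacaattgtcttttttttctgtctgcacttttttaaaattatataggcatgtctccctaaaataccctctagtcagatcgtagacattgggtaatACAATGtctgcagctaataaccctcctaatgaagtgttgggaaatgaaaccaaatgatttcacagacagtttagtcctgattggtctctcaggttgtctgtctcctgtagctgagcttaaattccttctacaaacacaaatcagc
Klk4 promoter: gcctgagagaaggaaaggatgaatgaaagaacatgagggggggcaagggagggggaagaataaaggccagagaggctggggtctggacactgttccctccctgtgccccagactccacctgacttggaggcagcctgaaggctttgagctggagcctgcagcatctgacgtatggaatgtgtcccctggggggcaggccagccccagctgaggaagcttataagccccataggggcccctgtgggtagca
Odam promoter: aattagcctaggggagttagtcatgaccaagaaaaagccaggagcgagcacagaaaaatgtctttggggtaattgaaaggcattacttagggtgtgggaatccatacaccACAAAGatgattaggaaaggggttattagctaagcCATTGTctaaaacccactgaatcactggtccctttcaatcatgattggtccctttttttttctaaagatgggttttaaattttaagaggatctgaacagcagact
*Amtn* held ACAATG with its first base 145 bases before the start. *Odam* held ACAAAG at 140 and ACAATG on the opposite strand at 105, and *Klk4* held neither. A match was present in 3 of the 7 members with a promoter in the table (*Amtn*, *Odam* and *Mmp20*), and in 25.2% of all 32851 promoters of this length. TATAAA on the strand of the gene stood in the promoters of *Amelx*, *Enam* and *Mmp20*, also 3 of 7, and in 7.59% of all promoters. Members with a SOX match thus had log2 ratios of -1.89, -0.62 and 0.63. A match is a string of letters and not a bound site, and binding was not measured on these arrays.

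Other genes in which mutations cause amelogenesis imperfecta were mostly lower. Of 20 listed, 19 were measured, with 15 lower, against 47.6% of measured genes, and 4 higher, and a median log2 ratio of -0.57, against a median of 0.01 for all measured genes. At least 2-fold lower were 3 of the 19, against 0.667% of measured genes, and at least 2-fold higher were 0, against 0.739%. These were *Slc24a4*, a calcium exchanger of maturation-stage ameloblasts, at -2.27, and *Lama3* and *Lamb3*, chains of the laminin of the same basal lamina, at -1.23 and -1.07. All 3 had been picked by the study from these arrays. The acid phosphatase *Acp4* was at -0.96 and *Fam20a*, the pseudokinase partner of the kinase that phosphorylates enamel matrix proteins, at -0.94. That kinase, *Fam20c*, was at -0.57, and the integrin subunit *Itgb6* at -0.77. The highest was *Cnnm4*, a metal transporter, at 0.18. *Wdr72*, a vesicle protein of maturation ameloblasts, was at -0.01. The unmeasured gene, *Slc10a7*, was well above background in *Sox21* KO alone and at least 1.39-fold higher.

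Of the transcription factors and signals of ameloblasts, all 14 listed were measured, with a median log2 ratio of -0.12. Lower were 8, against 47.6% of measured genes, and higher 6, against 52.4%. None was past 2-fold, 0 of 14 against 0.667% and 0.739%, so these shares were near those of all genes. The lowest was *Satb1*, a chromatin organizer, at -0.55, and the highest *Bcl11b*, a zinc finger factor needed for ameloblast development, at 0.58. *Sp6*, a factor that drives ameloblast genes, was at -0.35, *Dlx3* at -0.15, *Msx2* at 0.11 and the secreted signal *Shh* at -0.20. Of the relatives of the enamel genes that serve dentin and bone, 5 listed and all measured, 4 were higher, against 52.4% of measured genes, and 1 was lower, with a median of 0.65. They are not apart from the marker lists given further on, since *Spp1*, *Ibsp* and *Mepe* are also bone markers, a list with 8 of 8 higher, and *Dmp1* and *Dspp* are also odontoblast markers. *Dmp1* was at 0.93, *Spp1* at 0.82, *Mepe* at 0.65 and *Ibsp* at 0.55, and *Dspp*, the main dentin gene, was at -0.01.

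The tissue labels were checked on marker lists. Enamel matrix signal was high on both arrays, and the odontoblast markers summed to a scaled signal of 469 in wild-type and 500.4 in *Sox21* KO. Of these sums *Col1a1* alone made up 350 and 378.5. Odontoblast markers were higher in 4 of 5, against 52.4% of measured genes. Their median log2 ratio was 0.11, from -0.01 for *Dspp* to 0.93 for *Dmp1*. Epithelium markers were all measured, 3 lower and 7 higher of 10, with a median log2 ratio of 0.15 and a sum of 582 and 679. Relative to that median the log2 ratios of the enamel genes were -2.04 for *Amtn*, -1.20 for *Klk4*, -0.81 for *Enam*, -0.78 for *Mmp20*, -0.38 for *Ambn*, -0.08 for *Amelx*, 0.18 for *Fam83h* and 0.48 for *Odam*.

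Markers of other tissues also differed between the arrays, where 52.4% of all measured genes were higher by any amount, 47.6% lower, and 0.739% at least 2-fold higher. Skin markers were higher in 4 of 4 measured genes of 6, with 3 at least 2-fold higher and a sum of 7.94 in wild-type and 17.0 in *Sox21* KO, with *Flg* measured in *Sox21* KO alone and *Ivl* on neither array. The sums of the lists are over every listed gene with a probe, measured or not. Bone markers were higher in 8 of 8, with a median of 0.60 and a sum of 163 and 216. Among them, *Alpl* at 0.006 and *Sp7* at 0.01 lay within the repeat-spot SD of 0.09. Skeletal muscle markers were lower in 6 of 7 measured genes of 8, with a median of -0.59 and a sum of 69.1 and 49.8. Cartilage markers had a median of 0.66 over 5 of 6, erythroid markers were lower in 3 of 3 measured of 5, with a median of -0.18, and leukocyte markers had a median of 0.41 over 2 of 4. Medians were -0.05 for Schwann cells, 0.07 for endothelial cells and 0.07 for the cervical loop and stratum intermedium, over 4 of 5 genes. In that list *Lgr5* was at 1.84, and *Sox2*, well above background in *Sox21* KO alone, was at least 2.43-fold higher. The part of these differences in the ratios of the enamel genes was not tested.

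**Figure D4:**
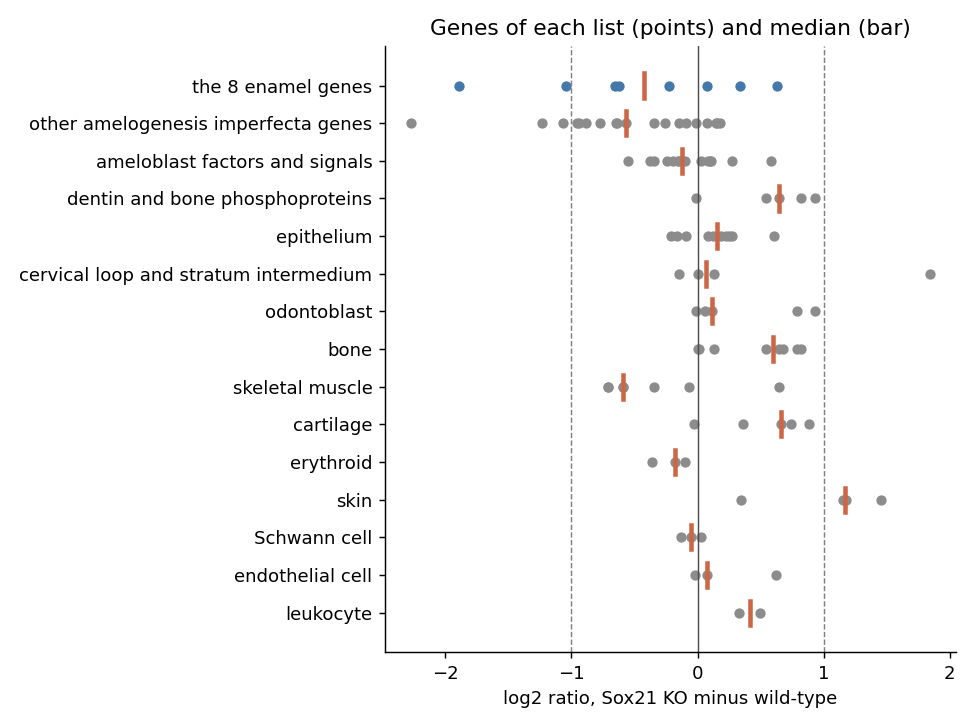
Log2 ratio (*Sox21* KO minus wild-type) of each measured gene (points) of the 8 enamel genes and of each list, with the median of the list (orange bar) and dashed lines at 2-fold. The amelogenesis imperfecta genes have the median -0.57, near that of the enamel genes at -0.43, and the skin list the median 1.17.

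The order of the 8 genes by their ratio, from *Amtn* through *Klk4*, *Enam*, *Mmp20*, *Ambn*, *Amelx* and *Fam83h* to *Odam*, was kept under quantile normalization and under both other treatments of background. The rest of the 15 alternatives could not reorder the genes with 1 probe, as they shift all genes by a single amount or leave those genes as they were. Neighbours in this order were less than 2 errors of the software apart, except *Amtn* and *Klk4*. The closest were *Enam* and *Mmp20*. The ratios of *Amtn* ranged from -2.04 to -1.81 over the alternatives, those of *Klk4* from -1.20 to -0.97 and those of *Odam* from 0.48 to 0.71.

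**Figure D5:**
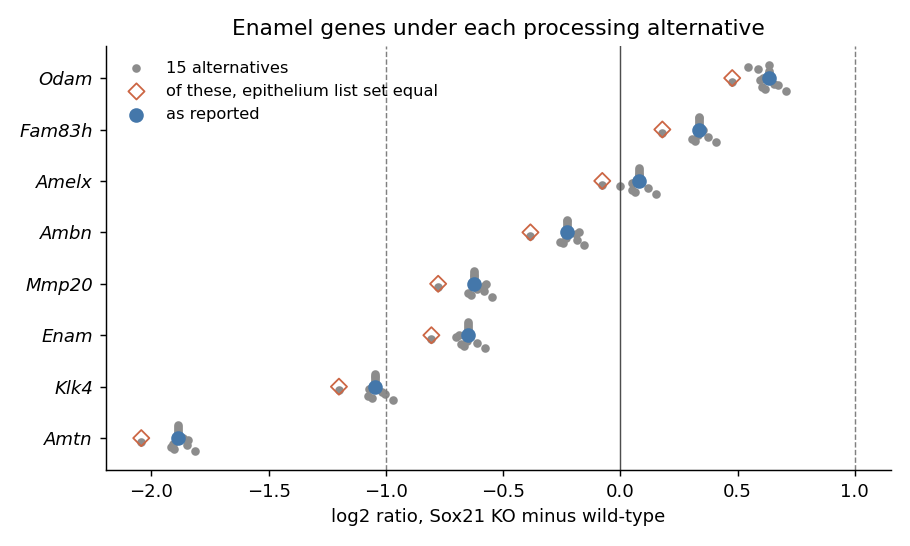
Log2 ratio (*Sox21* KO minus wild-type) of each enamel gene as reported (blue) and under 15 processing alternatives (grey, spread vertically so that they can be told apart), with the scaling that sets the epithelium list equal on both arrays ringed in orange. *Amtn* stays past the lower 2-fold line, *Klk4* crosses it once at -0.97, and *Amelx* crosses 0 once at -0.08.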

How the data were processed

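RNA of incisor was measured on 2 Agilent one-colour arrays, 1 per genotype, and samples were grouped by their labels. The authors scanned the arrays and deposited a processed signal intensity for each spot, from which Agilent Feature Extraction 10.7.3.1 had removed the background, beside its error and the raw intensities. The authors also deposited a linear ratio, the processed signal over 1 number per array, which was constant over the spots to a relative difference of 1.37e-06. These divisors, 268 and 276, round to the 75th percentiles of all spots. Its direction and scale are therefore known, it is not centred, and its column medians were 0.0756 and 0.0707. No columns of other comparisons were used.

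Here, each processed signal was divided by the 75th percentile of its array, log2 was taken, spots of a probe were averaged, and *Sox21* KO minus wild-type was formed. Left out were control spots and 267 spots marked as outliers, which left 55679 probes. Of these, RefSeq GRCm38.p6 named 26298 through their accession, 2044 through their symbol and 355 through a former symbol, and 26982 kept the file's name. A gene with several probes took the brightest one measured on both arrays. A gene measured on 1 array alone was given a bound: its brighter scaled signal was divided by the dimmer one, or by the lowest value marked well above background on the dimmer array if that was greater.

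The rule for naming genes took the 8 members, the targeted gene *Sox21*, genes of the pathway lists at least 2-fold apart with up to 4 more at the ends of each list, the genes around the cluster of chromosome 5, and the ends of the marker lists. The value of 1 listed gene is not reported here. The members and lists were chosen with earlier results of these data known. *Col1a2*, and further list genes such as *Fam20c*, *Itgb6*, *Wdr72*, *Sp6*, *Dlx3*, *Msx2*, *Shh*, *Sox2*, *Flg*, *Ivl*, *Col1a1* and *Sp7*, were named outside this rule after their values were seen. Likeness of pattern between genes was not computed, since 2 arrays give each gene 1 ratio. No test was run, with 1 array per genotype. The steps were tested on simulated data. The alternatives concern scaling, background correction, filter, outlier spots, probe choice and threshold. Python 3.11.15, numpy 2.4.6, pandas 2.3.3, matplotlib 3.10.9, R 4.3.3 and limma 3.58.1 were used.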

Additional observations from a re-analysis of the deposited data

How the results depend on the processing

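No paired analysis was possible because each genotype has 1 array, and for the same reason no array could be left out. Under 15 alternatives the number of enamel genes at least 2-fold lower, 2 as reported, was 1 with the arrays scaled to their median, where *Klk4* came to -0.97, and 4 at a 1.5-fold threshold. Of all measured genes, 0.493% were as low under the median shift and 2.99% at the 1.5-fold threshold. The number at least 2-fold higher, 0 as reported, was 1 at the 1.5-fold threshold, against 3.20% of measured genes. The median log2 ratio of the 8, -0.43 as reported, was -0.58 when the epithelium list was set equal on both arrays, which also moved the median of all genes to -0.14 and turned *Amelx* to -0.08. The number of enamel genes lower by any amount, 5 as reported against 47.6% of measured genes, was then 6. The share of all genes lower in that setting was not computed, but their median was also lower there. Under the other 14 alternatives the number of enamel genes lower was 5. At the dimmer probe *Odam* was at 0.55.

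Over all measured genes, 92 were at least 2-fold lower and 102 higher as reported, so that 47.4% of those past the line were lower. These counts were 68 and 128 under the median shift (34.7% lower), 151 and 70 with the epithelium list set equal (68.3%), 40 and 46 with normexp background correction, and 49 and 53 without background subtraction. They were 695 and 508 without a requirement on background (57.8%), 260 and 252 when 1 array well above background sufficed, and 412 and 441 at 1.5-fold. The enamel genes are bright, with signals far over the 95th percentile of the negative controls, 5.99 and 5.39, so background limits their ratios little. That 1 array stands for each genotype is a further limit, and the choice of scaling moved their ratios too.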
